A study of Arabidopsis thaliana with 6 samples.

Results

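Of 91164 introns with enough reads in rosette leaves of Arabidopsis thaliana, 179 were removed almost completely in the wild type and left in 5% or more of the signal in the mac3a/mac3b double mutant. Retention is 100 × intron depth / (intron depth + depth of the neighbouring exons), where depth is the average number of reads over a base. Introns were kept when intron plus exon depth reached 20 in every library, and chosen when retention was below 0.5% in each of 3 Col-0 libraries and at least 5% in each of 3 mutant libraries. The members were thus chosen by their measured retention in all 6 libraries, and their contrast between the genotypes is described and not tested. Among the authors' deposited adjusted values of this same contrast, 15 of the 179 members (8.38%) were under 0.05, against 1.97% of all 105206 introns listed, and nothing is read from that share. The 179 introns lie in 178 genes. They are 0.385% of the introns below 0.5% in every Col-0 library, and 1.57% of the 11410 introns at 5% or more in every mutant library. With the genotypes exchanged, the same limits found 0 introns.

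Both groups were leaves of plants 40 days old, still vegetative, grown at 22 °C in days of 8 h light and 16 h dark. One group was the wild type Col-0 and the other the mac3a/mac3b double mutant, with 3 libraries of poly(A) RNA each. A library held from 80626787 to 108909613 uniquely mapped reads, summed over 13069 genes. The labels give neither the alleles nor whether the libraries came from separate plants, so the spread between libraries may be partly technical. Of the mutated genes, MAC3A was at 22.0, 16.7 and 20.2 RPKM (reads scaled to gene length and library size) in Col-0 and 8.87, 6.31 and 5.92 in the double mutant. MAC3B was at 35.4, 36.4 and 49.0 against 8.98, 5.64 and 7.60, so neither gene's groups overlapped. In the limma test of expression described below, the adjusted p was 0.1 for MAC3A, which was thus not called, and 0.0377 for MAC3B. The 4 leaf markers, the photosynthesis genes RBCS1A, CAB1, CA1 and RCA, summed to 16100 to 41400 RPKM in Col-0 and 28000 to 43700 in the mutant. The 5 markers of seed, flower and root summed to 0.360 to 0.670 RPKM in Col-0 and 1.12 to 1.57 in the mutant, without overlap. Most of this was the floral gene AG, at 0.640, 0.320 and 0.480 RPKM in Col-0 and 1.01, 1 and 1.05 in the mutant, and the seed storage gene CRU3 was listed at 0 in all; their part in the results was not tested.

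MAC3A and MAC3B are U-box proteins related to yeast Prp19 and belong to the MOS4-associated complex, which joins the spliceosome during its activation. An intron is recognised by its donor site at the 5′ end, which pairs with U1 and then U6 small nuclear RNA, by a branch point bound by U2, and by the acceptor site at the 3′ end, bound by the U2AF dimer. In plants, retention is the most frequent form of alternative splicing, and a transcript that keeps an intron can stay in the nucleus, be degraded after a premature stop codon, or be translated.

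The deposited table numbers introns along the chromosome without coordinates. Matching their lengths to the RefSeq annotation placed 176 of the 179, of which 170 coincide with an annotated intron, and all 170 begin with GT and end with AG. The other 6 placed members are gaps of 6 to 138 bases between exons of different transcripts, and 3 were not placed (in DCL2, AT2G47410 and AT1G67300). The sequences below are those of the member with the highest lowest-library value among coding introns (TBP1), of a regulator gene (MYB102), of the mutated gene MAC3B, of the clock gene PRR5, of 2 splicing factor genes, and of 3 members discussed further on. For TBP1 and MAC3B an intron of the same gene is shown for comparison. It is the least retained in the mutant among the gene's annotated introns that met the depth minimum. TBP1 intron 2, which did not meet it, was lower, at a mutant mean of 0.526%. They are RefSeq sequence of TAIR10.1 on the transcribed strand, 5′ to 3′; capitals mark the first 6 bases (donor), the last 3 (acceptor), and CTNAC, a motif like the plant branch point, where it lies within the last 50 bases.
TBP1 intron 5, chr5:4462984-4463058, plus strand, retained at 19.4% in the mutant: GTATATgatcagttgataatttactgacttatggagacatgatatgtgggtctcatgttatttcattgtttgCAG
TBP1 intron 6, chr5:4463139-4463238, plus strand, retained at 1.04%: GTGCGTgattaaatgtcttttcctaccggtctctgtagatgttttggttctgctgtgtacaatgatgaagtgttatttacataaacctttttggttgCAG
MYB102 intron 1, chr4:11419215-11419300, minus strand, retained at 18.3%: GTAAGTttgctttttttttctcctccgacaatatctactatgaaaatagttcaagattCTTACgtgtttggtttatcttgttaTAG
MAC3B intron 3, chr2:14126868-14126994, minus strand, retained at 8.66%: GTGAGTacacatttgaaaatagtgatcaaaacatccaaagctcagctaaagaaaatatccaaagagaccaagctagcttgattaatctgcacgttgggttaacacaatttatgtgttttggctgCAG
MAC3B intron 12, chr2:14129164-14129411, minus strand, retained at 0.0882%: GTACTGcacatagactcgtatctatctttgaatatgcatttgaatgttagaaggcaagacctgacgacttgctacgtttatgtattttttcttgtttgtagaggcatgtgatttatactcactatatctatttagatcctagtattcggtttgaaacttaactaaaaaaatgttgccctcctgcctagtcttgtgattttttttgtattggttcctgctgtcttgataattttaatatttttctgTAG
PRR5 intron 4, chr5:8357825-8357903, minus strand, retained at 7.07%: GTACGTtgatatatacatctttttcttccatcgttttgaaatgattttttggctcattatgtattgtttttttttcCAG
ATU2AF65A intron 8, chr4:17296078-17296149, minus strand, retained at 5.97%: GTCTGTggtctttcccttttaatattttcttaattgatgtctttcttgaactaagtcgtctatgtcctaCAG
AT5G61140 intron 32, chr5:24598349-24598412, plus strand, retained at 8.70%: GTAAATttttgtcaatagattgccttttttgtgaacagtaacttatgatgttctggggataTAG
ORC4 intron 14, chr2:87695-87760, plus strand, retained at 10.4%: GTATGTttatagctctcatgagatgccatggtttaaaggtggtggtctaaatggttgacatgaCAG
SOS2 intron 6, chr5:13635782-13635849, plus strand, retained at 10.6%: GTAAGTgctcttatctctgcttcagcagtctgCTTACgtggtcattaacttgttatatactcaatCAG

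Most member introns held no or hardly any reads in Col-0 and were read from end to end in the mutant. The median of the 179 was 0.0555, 0.0637 and 0.0347% in the 3 Col-0 libraries and 7.56, 7.49 and 8.19% in the 3 mutant libraries, against 0.262, 0.219, 0.160, 1.55, 1.60 and 1.75% over all 91164 introns. In 14 members the intron depth was 0 in all 3 Col-0 libraries. The share of an intron's bases that any read covered had a median of 5.71, 3.70 and 2.74% in Col-0. In the mutant libraries 176, 177 and 174 of the 179 were fully covered. Introns under 0.5% in each Col-0 library and under 5% in each mutant library had median covered shares of 8.97, 8.82 and 5.83% in Col-0. Their median was 100% in each mutant library, so full coverage in the mutant does not set the members apart. The highest value of any member in any library was 24.6%, so exon depth stayed above intron depth for every member. The mean over the mutant libraries ran from 5.18 to 19.4% with a median of 8.30%. In their lowest mutant library, 82 members were under 6%, 87 were from 6 to under 10%, and 10 were at 10% or more. The 3 just inside were AT1G49740 at 5.005%, RL2 at 5.011% and AT1G56540 at 5.018%, and the 3 just outside were AT2G24170 at 4.996%, AT2G46572 at 4.994% and AT1G78420 at 4.994%. At the Col-0 limit, AT5G57710 (0.497% in its highest library), AT2G04080 (0.496%) and AT1G74800 (0.495%) were just inside, and FBH4 (0.501%), AT5G09880 (0.506%) and AT5G06440 (0.507%) just outside. The 3 mutant libraries differed for many members. The highest was over 1.5 times the lowest in 83 members and at least 2 times in 36, and it was mutant library 3 in 80 members, library 1 in 55 and library 2 in 44.

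**Figure D1:**
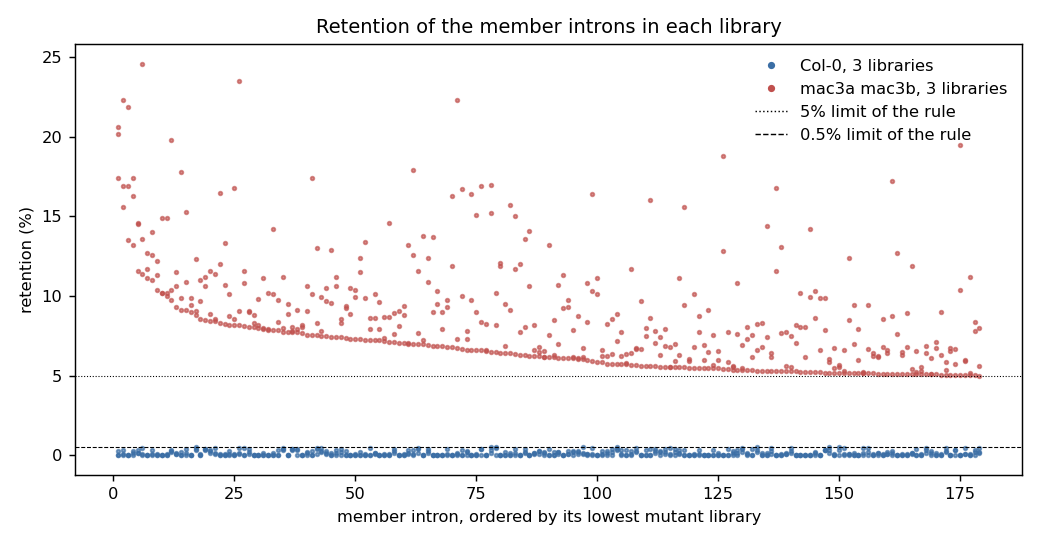
Retention (%) of each of the 179 member introns in 3 Col-0 libraries (blue) and 3 mac3a/mac3b libraries (red), ordered by the lowest mutant library; the lines are the limits of the rule at 0.5% and 5%. The red points spread upward to 24.6%, and 82 members have their lowest red point under 6%.

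To see values that the choice did not use, the rule was applied to 2 libraries of each genotype and the left-out pair was read. Without the libraries numbered 1, 545 introns were chosen, and in the left-out libraries their median was 0.362% in Col-0 and 5.98% in the mutant. Without number 2, 518 were chosen, with medians of 0.279 and 5.50%, and without number 3, 448 were chosen, with medians of 0.0820 and 5.72%. The left-out mutant library was above the left-out Col-0 library for 512 of 545, 496 of 518 and 416 of 448 introns. It reached 5% for 341, 296 and 258 of them, and the left-out Col-0 library stayed under 0.5% for 315, 324 and 337. All introns had medians of 0.262, 0.219 and 0.160% in Col-0 and 1.55, 1.60 and 1.75% in the mutant in the same libraries. How often the mutant library was the higher one over all introns was not counted. Those counts therefore mark nothing particular to the chosen introns. The difference in these introns was seen again in libraries that had not chosen them, with mutant medians above those of all introns. Retention of 5% in every library was not seen again. The left-out libraries were held to no depth minimum.

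Of the 12 members with the highest lowest-library value, 3 lie in genes of DNA replication and genome maintenance (TBP1, emb2411 and TSK). This host group and those used from here on were made by role after the values were seen and were not tested. The share of such genes among all genes was not counted, so nothing is read from how many hosts a group holds. Intron 5 of TBP1 (AT5G13820), a telomeric DNA binding protein, was at 0.267, 0.0138 and 0% in Col-0 and at 17.4, 20.6 and 20.2% in the mutant. Its depth rose from at most 0.08 reads per base to 15.9, 33.0 and 17.8, while the flanking exons were at 29.9 to 72.7 and 70.3 to 127. The other introns of TBP1 had mutant means between 0.526 and 2.79%, so 1 intron of the 9 listed stood apart from its neighbours on both sides. The first intron of emb2411 (AT1G08840), annotated as a DNA replication helicase, lies in the 5′ UTR (chr1:2838693-2838765, minus strand) and was at 0.0155, 0 and 0% against 13.5, 21.9 and 16.9%. The last intron of TSK (AT3G18730, TONSOKU, needed for genome stability and meristem organisation) was at 0.0520, 0 and 0% against 10.2, 14.9 and 9.98%, with exons at only 17.9 to 38.7 reads per base in the mutant.

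NBS1, a subunit of the complex that senses broken DNA ends, had its intron 3 at 0, 0 and 0.0549% in Col-0 and at 10.7, 8.27 and 13.3% in the mutant. ORC4, a subunit of the origin recognition complex, had its intron 14 at 0.264, 0.0185 and 0.157% against 5.12, 8.73 and 17.2%. The spread of ORC4 in the mutant came with exon depths of 147, 77.5 and 35.2, while its intron depth was 7.91, 7.41 and 7.33. Introns of the Smc5/6 subunit gene AT1G51130 (8.66 ± 1.13%), the helicase gene RecQl3 (8.97 ± 3.71%), the cell cycle regulator E2F3 (8.67 ± 3.98%), the DNA demethylase gene DML3 (7.61 ± 1.67%) and the chromatin assembly subunit gene FAS1 (7.46 ± 3.82%) were also members (mutant mean ± SD, n = 3). Of these 5, DML3 and FAS1 lie below the median of all members, 8.30%. In these 10 genes of DNA and chromatin the mean Col-0 retention was at most 0.146%.

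Genes of RNA processing and small RNA production were among the hosts as well. MAC3B itself had its intron 3 as a member, the second last of the transcript, at 0.00124, 0.00250 and 0.00475% in Col-0 and at 8.15, 9.83 and 8.01% in the mutant. Its exon depth fell from 1610, 1600 and 1890 to 193, 128 and 159 reads per base, and its intron was covered over 79.5, 96.9 and 96.9% in the mutant, less than nearly all other members. An effect of the mutant allele on this gene's own transcript and the loss of the proteins cannot be told apart here. ATU2AF65A, the large U2AF subunit, had its intron 8 at 0.458, 0.273 and 0.106% against 6.41, 5.30 and 6.20%. AT5G61140, annotated as a U5 small nuclear ribonucleoprotein helicase, had its intron 32 of 48 at 0.0514, 0.387 and 0.191% against 8.07, 8.97 and 9.05%. The low expressed AT4G38780, like the splicing factor Prp8, had its intron 2 at 0, 0.0410 and 0% against 7.33, 10.5 and 8.89%.

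Among the Dicer enzymes, which cut double-stranded RNA into small RNAs, DCL3 intron 6 had a depth of 0 in every Col-0 library and was at 7.94, 9.64 and 7.21% in the mutant. DCL2 intron 14 was at 0.0665, 0.116 and 0.449% against 23.5, 9.05 and 8.15%, so its mean of 13.6% is raised by mutant library 1. CPL3, a phosphatase of the RNA polymerase II tail, had its last intron at 0.00466, 0.00373 and 0% against 12.8, 5.44 and 18.8%. Its mutant libraries differed more than 3 times, with library 3 highest.

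Regulators of development and stress responses formed another group of hosts. The last intron of MYB102, a MYB transcription factor, was at 0, 0.0970 and 0.349% in Col-0 and at 22.3, 16.9 and 15.6% in the mutant. PRR5, a pseudo-response regulator of the circadian clock, had its intron 4 at 0.455, 0.223 and 0.0148% against 9.42, 6.65 and 5.15%. The PRR5 values fell in the order of rising exon depth within the mutant, at 428, 1450 and 2310 reads per base. SOS2, a kinase of salt tolerance, had its intron 6 at 0.0263, 0.367 and 0.416% against 6.58, 8.39 and 16.9%. CPC, a small MYB protein of root hair patterning, had its first intron at 0, 0 and 0.0646% against 15.1, 6.58 and 9.02%. BRX, a regulator of root growth, had its last intron at a depth of 0 in every Col-0 library and at 5.49, 5.90 and 6.07%.

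Genes of the chloroplast, of metabolism and of membrane traffic formed a further group. STN8, a kinase that phosphorylates photosystem II proteins, had its last intron at 0.362, 0.374 and 0.357% in Col-0 and at 11.2, 8.52 and 10.6% in the mutant, at exon depths of 2440 to 3300 in both. ARC5, a dynamin of chloroplast division, was at 0.225, 0.0871 and 0.0980% against 6.39, 5.12 and 6.60%. These 2 deeply read introns had intron depths of 262 to 334 and 114 to 155 in the mutant, so their values rest on many more reads than those of TSK or BRX. The beta-amylase gene BMY3 was at 7.70, 8.06 and 8.18% in the mutant, and VTC5, an enzyme of vitamin C synthesis, at 10.3, 16.4 and 5.92%. In membrane traffic, the exocyst gene SEC3B was at 10.6, 9.30 and 11.5%, VPS45, which acts in vesicle fusion, at 9.68, 11 and 8.53%, and the vacuolar traffic gene RAB7A at 15.3, 10.9 and 9.09%, with Col-0 means of at most 0.174%.

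Enzymes and other proteins made up the rest of the 12 members with the highest lowest-library value. Intron 11 of BGLU6, a beta-glucosidase gene, was the first of the annotated transcript used here, though some reads joined exons further upstream. It was at 0.469, 0.0618 and 0.0198% in Col-0 and at 13.6, 11.4 and 24.6% in the mutant, with mutant library 3 the highest. The third of 11 introns of AT2G38840, a guanylate-binding protein gene, was at 0.114, 0.348 and 0.146% against 11.6, 14.5 and 14.6%. AT2G04650, of the ADP-glucose pyrophosphorylase family, had its last intron at 0.327, 0 and 0.0502% against 11, 14 and 12.6%. In all 3 genes, as in every member, the rule itself set the mutant libraries above the Col-0 libraries.

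AT5G24318, of glycosyl hydrolase family 17, was at 0, 0.0168 and 0.0159% in Col-0 and at 11.1, 12.7 and 11.7% in the mutant. AT3G57220, a glycosyl transferase, was at 0.214, 0.285 and 0.355% against 9.78, 19.8 and 10.4%, with mutant library 2 apart from the other two. The remorin gene AT1G69325 had no intron depth in any Col-0 library and was at 14.9, 10.2 and 10.2%. The subtilase gene AT4G10550 was at 0.0203, 0.0185 and 0.104% against 12.2, 10.4 and 11.3%. The mutant libraries lay within 2 percentage points of each other in AT5G24318 and AT4G10550.

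Over all introns of sufficient depth 0.196% were members, so lists of this size would hold few. Of the gene lists examined, 1 of 94 introns of the MOS4-associated complex genes was a member (MAC3B), 1 of 101 introns of clock genes (PRR5) and 1 of 239 introns of splicing factor genes (ATU2AF65A). None of 223 introns of flowering genes, 64 of nonsense-mediated decay genes and 45 of light signalling genes was one. The flowering and light signalling genes had 39 and 11 introns at 5% or more in every mutant library, beside 12.5% of all introns, and these were kept out by the Col-0 limit. AT1G04770, with a tetratricopeptide repeat, was the only gene with 2 members, intron 2 at 8.81, 9.07 and 12.3% and intron 3 at 7.73, 7.95 and 9.11% in the mutant.

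In most host genes the member, chosen for its level, was retained more than the gene's other introns. In 165 host genes with another intron of sufficient depth, the median mutant mean was 8.08% for the member and 3.06% for the median of the others. The others exceeded the member in 17 of the 165. The 1318 other introns had library medians of 0.144, 0.105 and 0.0685% in Col-0 and 1.45, 1.48 and 1.79% in the mutant, against 1.55, 1.60 and 1.75% for all introns in the mutant. Among them 12.5% were at 5% or more in every mutant library, and 12.5% of all introns were. In a limma test of log2((intron depth + 0.5)/(exon depth + 0.5)) with Benjamini-Hochberg adjustment, 717 of 1382 other introns (51.9%) differed at an adjusted p of 0.05, 716 higher and 1 lower, against 62.4% of all 94773 introns tested. The median log2 change was 1.58 for these introns and 1.83 for all. Between mean Col-0 exon depths of 50 and 500, the shares were 48.0% and 53.7%.

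**Figure D2:**
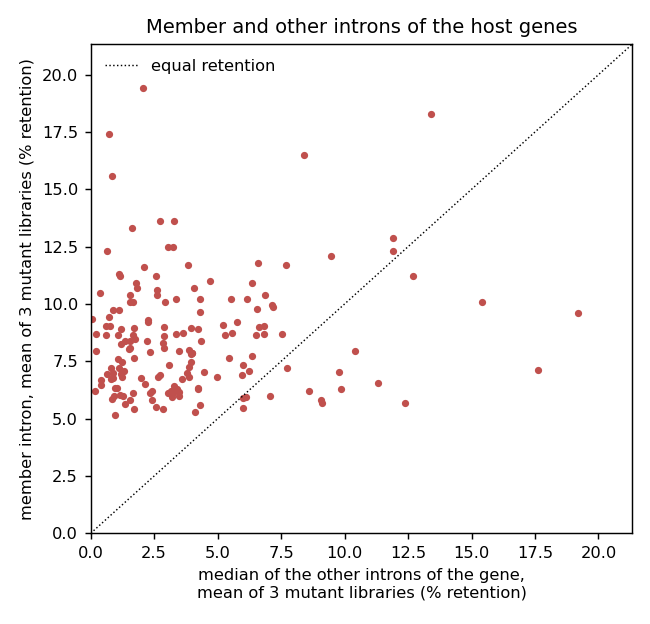
Mutant retention (mean of 3 libraries, %) of the member intron against the median of the other introns of the same gene, 1 point for each of 165 host genes; the dotted line marks equal retention. In 17 genes the point lies below the line.

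Member introns were short. The 170 annotated members had a median length of 82 bases (10th to 90th percentile 70.9 to 120), and 60% were shorter than 85 bases. Introns that were equally quiet in Col-0 but below 5% in each mutant library, 43068 of them annotated, had a median of 101 bases (80 to 307), and 18.7% were shorter than 85. The 10239 annotated introns at 5% or more in every mutant library that are not members had a median of 97 bases, and 32.1% were shorter than 85. Only 10 members (5.88%) reached 150 bases, against 27.8% and 26.6% in the other groups. The shortest annotated member, the first intron of AT5G40600, has 44 bases and was at 5.25, 8.06 and 10.2% in the mutant. The longest, the only intron of the phosphatase gene AT1G48040, has 483 bases and was at 10.8, 11.6 and 8.09%. Members lay in exons read less deeply, with medians of 154, 176 and 141 reads per base in Col-0 against 571, 665 and 610 for the quiet rest. At mean Col-0 exon depths of 50 to 500 the median lengths were 82.5 and 103 bases. Among the members, the median mutant mean was 8.32% for the 102 under 85 bases and 8.06% for the 68 others.

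**Figure D3:**
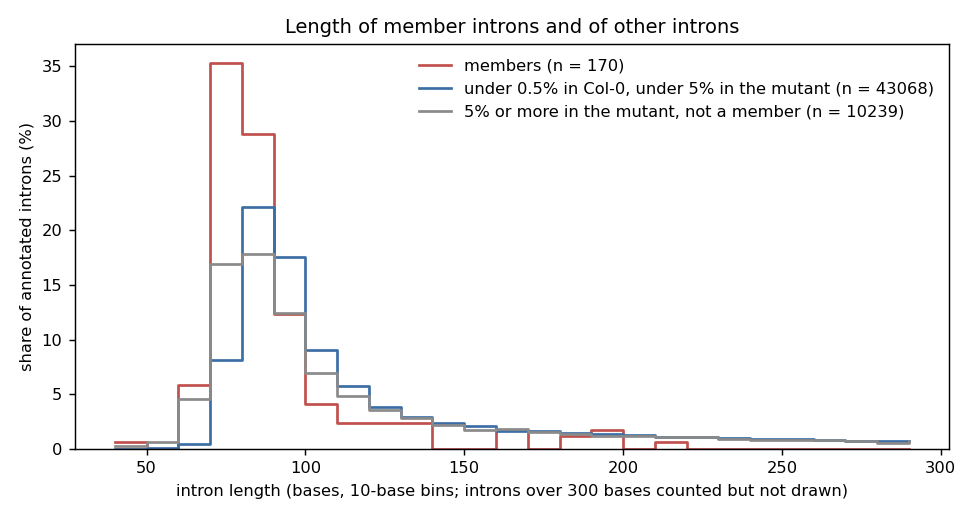
Share (%) of annotated introns by length in 10-base bins, for 170 members (red), 43068 introns quiet in Col-0 and under 5% in the mutant (blue), and 10239 other introns at 5% or more in the mutant (grey). The members peak between 70 and 90 bases, and 5.88% of them have 150 bases or more.

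Member introns often lay near the 3′ end. The last intron of the transcript made up 34.7% of the members, 8.52% of the quiet rest and 36.2% of the other introns at 5% or more in the mutant. Host transcripts had a median of 6 introns, as did those of the other retained introns, against 11 in the quiet rest. In transcripts with at least 2 introns the last made up 30.2% of the members, 7.90% of the quiet rest and 29.1% of the other retained introns, and the second last 18.2, 11.3 and 18.4%. In place the members thus resembled the other retained introns more than the quiet ones. Introns between 60 and 100 bases gave 31.4% last introns among members and 9.64% in the quiet rest.

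**Figure D4:**
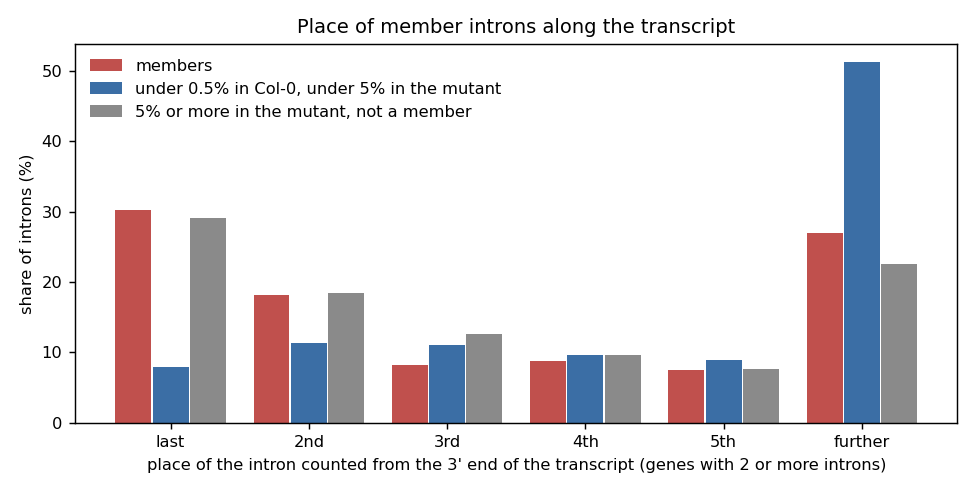
Share (%) of introns by place counted from the 3′ end, in transcripts with 2 or more introns, for members (red), introns quiet in Col-0 and under 5% in the mutant (blue) and other introns at 5% or more in the mutant (grey). The last intron holds 30.2, 7.90 and 29.1% of the 3 groups.

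Splice site letters were compared over the same groups. A donor score, the summed log2 odds of 9 bases across the site against even base use, had a median of 6.94 in members, 7.46 in the quiet rest and 6.53 in the other retained introns. The acceptor score, over the last 14 intron bases and the first base of the next exon, had medians of 8.74, 8.16 and 7.35. The members were thus highest at the acceptor. G at the fifth intron base, which pairs with U1, was present in 45.9% of members, 53.2% of the quiet rest and 45.1% of the other retained introns. The motif CTNAC in the last 50 bases, on the transcribed strand, was in 20% of members, 17.2% of the quiet rest, 13.5% of the other retained introns and 15.9% of all annotated introns. GC content had medians of 32.5, 33.0, 34.1 and 33.1% in the same order. In the printed examples SOS2 and MYB102 have the donor GTAAGT, which 7.06% of members and 9.48% of the quiet rest carry.

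Most members interrupt coding sequence, as do most introns. Of the 170, 155 lie in the coding part, 9 in the 5′ UTR, 4 in the 3′ UTR and 2 in transcripts without one. The coding share was 91.2% in members, near the 92.2% of all annotated introns. It was 96% in the quiet rest and 77.6% in the other retained introns. The 5′ UTR held 5.29% of members and 4.93% of all, and the 3′ UTR 2.35 and 2.2%. Read in frame, 123 of the 155 (79.4%) hold a stop codon inside the intron, 26 shift the frame without one, and 6 keep the frame open. The quiet rest held a stop in 89.6% of 41348 coding introns, and the other retained introns in 83.4% of 7950. In introns of 60 to 100 bases the shares were 76.4% in members, 84.1% in the quiet rest and 79.3% in the other retained introns. PRA1.A1 was among the 6 that keep the frame, at 10.5, 7.48 and 9.68% in the mutant. The 9 members in the 5′ UTR had a median mutant mean of 12.3%, above the 7.94% of the coding members. They include introns of emb2411, AT2G27340, the beta-glucosidase gene BGLU6 and the subtilase gene AT4G10550.

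The amount of host transcript was tested separately from retention. With limma on log2(RPKM + 1), 1 of 170 host genes passed an adjusted p of 0.05, against 0.105% of 17163 genes: the mutated gene MAC3B, with a log2 change of −2.30 (SE 0.22, adjusted p = 0.0377). Its call was lost when any 1 library was left out, and its adjusted p ran from 9.58e-17 to 0.198 over the alternatives. The median log2 change was 0.14 over the hosts and 0.01 over all genes, and 118 of 170 hosts (69.4%) had a value above 0, against 50.9% of all genes. In leaf RNA, fewer cells of a type and less RNA per cell cannot be told apart. With the replicate number as a block, 8 hosts (4.71%) passed, against 4.52% of all genes. That fit called 7 genes higher, and 5 of them follow with their RPKM in libraries 1, 2 and 3.

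BMY3 was at 2.30, 1.26 and 1.58 RPKM in Col-0 and 9.83, 4.22 and 5.75 in the mutant, a log2 change of 1.44 (limma with block, adjusted p = 0.0254; without it, 0.198). BGLU6 was at 6.21, 2.54 and 4.24 RPKM in Col-0 and 13.7, 11.5 and 13.4 in the mutant, a log2 change of 1.43 (limma with block, adjusted p = 0.0275; without it, 0.159). For both genes every mutant library lay above every Col-0 library. SRO2, related to the stress regulator RCD1, was at 0.580, 0.830 and 1.29 RPKM against 2.01, 3.61 and 4.25, and VTC5 was at 15.1, 14.1 and 10.8 against 30.4, 35 and 20. HDG11, a homeodomain protein of the epidermis, was at 1.16, 0.910 and 0.940 RPKM against 2.79, 2.21 and 2.23, again without overlap. The other genes called with the block were ILL6 (log2 change 1.28) and AT1G70505 (0.85), both higher, and MAC3B, lower. In the authors' deposited table, 13 of 178 hosts (7.30%) had an adjusted p under 0.05, 10 higher and 3 lower, against 4.24% of 22080 genes.

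Skipping and splice site choice were tested in the host genes. Of 149 skipping events in 79 host genes, 38 spanned a member. The quasi-likelihood test of edgeR called 0 of the 149, against 0.0162% of 12382 events. At an unadjusted p under 0.05 in that test were 7 of the 149 (4.70%), against 4.05% of all events. Limma on the read ratio called 1 of the 149, against 0.606% of all events, so the number called was near the share over all events. The event was the skipping of exon 2 of AT2G27340, an enzyme of the second step of GPI anchor synthesis, whose first intron was a member at 0.286, 0.156 and 0% in Col-0 and 16.3, 13.2 and 17.4% in the mutant (chr2:11696800-11696936, plus strand). Reads that skip exon 2 were 5, 5 and 9 in Col-0 beside 97, 104 and 77 that include it, and 21, 23 and 14 in the mutant beside 17, 26 and 20. The share of skipping was thus 4.90, 4.59 and 10.5% in Col-0 and 55.3, 46.9 and 41.2% in the mutant, without overlap. The edgeR adjusted p was 0.544 over all events and 0.0294 over the 769 events that had 60 or more skipping and 60 or more inclusion reads, of which 1.04% were called; limma gave 0.0268. The gene was at 4.54, 4.82 and 4.10 RPKM in Col-0 and at 3.03, 2.88 and 2.57 in the mutant. The depth of the exons beside its intron 1 fell from 122, 135 and 91.2 to 31.0, 40.4 and 36.0, so less exon depth and more intron depth, from 0.35, 0.21 and 0 to 6.06, 6.11 and 7.59, both entered its retention.

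Of 1114 donor and acceptor events in 138 host genes, 123 lay at a member. The edgeR test called 2 of the 1114, against 0.187% of 135996 events. That number is near the share over all events, and nothing is read from it. Both calls concerned the member intron of STN8 and a donor 4 bases upstream of the usual one. The stretch is printed with 20 bases of the exon before it, and capitals mark the 4 exon bases between the donors, the 6 bases of the usual donor and the acceptor.
STN8 intron 3 with the end of its exon, chr5:360427-360519, plus strand: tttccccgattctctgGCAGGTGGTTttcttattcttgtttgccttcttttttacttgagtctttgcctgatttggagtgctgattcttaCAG

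The usual donor of STN8 reads GTGGTT, with a donor score of 4.99, and the upstream one reads GCAGGT, so it begins with GC. The junction from the upstream donor to the usual acceptor had 27, 12 and 19 reads in Col-0 and 89, 80 and 61 in the mutant, beside 2077, 1733 and 1492 and 1182, 1477 and 1208 reads on the competing junctions. Its share was 1.28, 0.688 and 1.26% in Col-0 and 7, 5.14 and 4.81% in the mutant, without overlap (edgeR adjusted p = 0.00466). The same donor joined to an acceptor 8 bases inside the next exon had 2, 1 and 1 reads in Col-0 and 14, 7 and 22 in the mutant (edgeR adjusted p = 0.0122). The first call was lost without Col-0 library 1, Col-0 library 2 or mutant library 1 and the second without each library other than mutant library 2, and limma on the ratio gave 0.291 and 0.155. STN8 expression was 83.7, 67.1 and 65.8 RPKM in Col-0 and 90.5, 72.8 and 83.2 in the mutant, with overlap (limma adjusted p = 0.823).

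**Figure D5:**
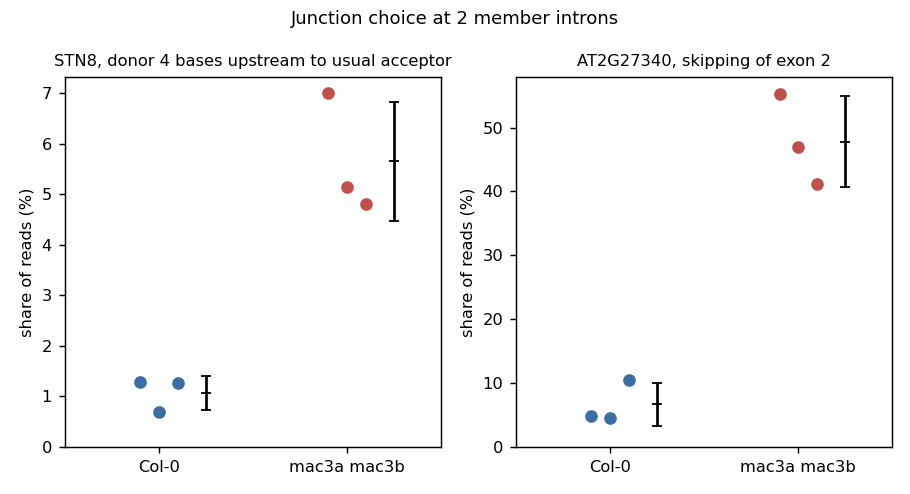
Left, share (%) of STN8 reads at intron 3 on the junction from the donor 4 bases upstream to the usual acceptor; right, share (%) of AT2G27340 reads that skip exon 2. Points are libraries and bars the mean ± SD of 3; the mutant points, from 4.81 and 41.2% upward, lie above all Col-0 points in both panels.

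Where both kinds of reads numbered 60 or more, 6 of 91 events in host genes were called, against 3.24% of 12422 events. They were the STN8 donor from both of its sides and events at introns other than the members in BGLU6, AT1G67300 and AT3G59020. By their exon numbers, those in BGLU6 and AT1G67300 lay at the intron next to the member. The BGLU6 choice was also counted from both sides, so the 6 events hold fewer separate choices. In BGLU6 an acceptor 7 bases inside exon 12, as numbered along the chromosome, took 17, 5 and 10 reads in Col-0 and 54, 65 and 6 in the mutant. Its share was 13.5, 10.9 and 17.9% in Col-0 and 49.5, 42.5 and 40% in the mutant (edgeR adjusted p = 0.00627 under that limit and 0.284 over all events).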

How the data were processed

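The libraries, 3 of Col-0 and 3 of mac3a/mac3b, were made from poly(A) RNA of leaves. Per the submitters' processing notes, Trimmomatic, Bowtie2, DESeq2 and the build TAIR10 were used; versions and settings are not given in the sources used here. Per the file headers, the authors deposited a table of genes and 3 splicing tables made with RackJ. The deposited gene values were read as RPKM (reads scaled to gene length and library size), because RPKM times gene length kept a constant ratio to the unique read counts, to within 1%, for 97.9% or more of the genes. The intron table holds the authors' average depth (a coverage signal, not counts) of intron and exons, the covered fraction of each intron, and the authors' p-value. The authors' adjusted values, as deposited, are treated as a score because some exceed 1. The other tables hold deposited read counts of skipping, inclusion and junctions. The authors' log2 fold change is quoted only as theirs. Depth averages carry no read number, so no counting error could be given for retention. Of per-sample columns, 0 were without a sample.

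Retention and the members were computed with Python 3.11.15 (pandas 2.3.3). Coordinates come from matching intron lengths to RefSeq TAIR10.1, which placed 97.65% of the 91164 introns of depth. Expression was tested with limma 3.58.1 (R 4.3.3) on log2(RPKM + 1) where the mean was at least 1, which understates changes of low genes. Introns were tested with limma where depth was at least 10. Events were tested with edgeR 4.0.16 (interaction of genotype and read kind, at least 10 reads). Left out were 24122 junction rows whose counts were an exact swap of another row. Near mirrors stayed, so some splice site choices were counted from both sides. Benjamini-Hochberg adjustment ran over each whole table. The counting is not stated to use strand, and 2 members overlap an exon of another gene. Libraries of the same number deviated together in expression (r = 0.62, 0.78 and 0.43 across genes after removing genotype means), so the blocked fit is given there; no label explains the numbers. No pair of replicates agreed within sampling noise (chi-square of at least 337.6 per degree of freedom). The tests were tried on simulated data. The skipping and junction counts simulated there had no spread in share between libraries of a genotype beyond sampling noise, so nothing is read from that trial.

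Members and gene lists were chosen with earlier results of these data known. Named were the 12 members with the highest lowest-mutant library, those nearest the limits, hosts on the gene lists, hosts passing a test, and, chosen after their values were seen, groups of hosts by role.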

Additional observations from a re-analysis of the deposited data

How the results depend on the processing

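The number of members followed the limits: 85 below 0.2% in Col-0 and 421 below 1%, 804 at 3% or more in the mutant and 10 at 10% or more; leaving out 1 library at a time gave 252 to 335, as fewer libraries had to meet the limits. Depth minimums of 10 and 50 gave 217 and 123. Over these settings the median length of annotated members ran from 76.5 to 86 bases and the share of last introns from 20 to 39.1%. In introns of 60 to 100 bases, a limit chosen after seeing the data, 72.1% of members were under 85 bases.

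Host genes called for expression numbered 0 without a filter, 8 with the replicate block, 0 with edgeR 4.0.16 on counts (20 of 145 at an unadjusted p under 0.05, 13.8%, against 9.57% of all genes), 9 of 145 with DESeq2 1.42.0 (6.21%, against 3.54% of 13069 genes) and 0 whenever 1 library was left out. Scaling to equal totals moved the median log2 change of all genes to −0.07 and of hosts to 0.07. Other introns of the hosts called numbered 717, 574 to 673 without 1 library, and 712 with the replicate block. Skipping events called were 1 with at least 60 reads of each kind and 1 with limma, 0 with the replicate block; donor and acceptor events were 6 with at least 60 reads, 1 with the replicate block, 0 with limma and 0 to 3 without 1 library. Same-numbered libraries correlated weakly in introns (0.049 to 0.12), skipping (0.053 to 0.21) and donors and acceptors (0.017 to 0.046), so the block is given there for completeness. The cause of these changes was not tested. None of the host genes called with the block, and none of the called events, changed direction.

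Retention near 5% in exons of about 20 reads per base rests on few reads, and so does the Col-0 limit of 0.5% there.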
